A study of Homo sapiens with 12 samples.

Results

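The m6A reader genes were a named list of 10 genes, *YTHDF1*, *YTHDF2*, *YTHDF3*, *YTHDC1*, *YTHDC2*, *IGF2BP1*, *IGF2BP2*, *IGF2BP3*, *HNRNPA2B1* and *HNRNPC*. Each was matched from its symbol to 1 Ensembl identifier. All 10 were found among the 58302 genes of the count table, and all 10 were among the 15826 genes with enough counts to be tested.

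N6-methyladenosine (m6A) is a methyl mark on adenosines of mRNA, and readers are the proteins that bind the marked RNA or RNA whose folding the mark has opened. The YTHDF proteins and YTHDC2 act mainly in the cytoplasm on mRNA decay and translation, and YTHDC1 acts in the nucleus on splicing and export. The IGF2BP proteins are known for stabilising bound mRNAs and are often raised in tumours, while HNRNPA2B1 and HNRNPC are abundant nuclear RNA-binding proteins of splicing and RNA processing.

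The data came from the human oral squamous cell carcinoma (OSCC) lines HSC3 and CAL33, both established lines, kept with or without rapamycin at 100 nM. Rapamycin blocks the kinase complex mTORC1 and was used to switch on autophagy, so the comparison asks how the readers stood in cells with induced autophagy. For RNA-seq there were 4 libraries, 2 of each treatment, for which the labels give no length of treatment. MeRIP-seq, in which RNA fragments are pulled down with an antibody against m6A and set against input RNA, comprised 8 libraries after 3 days and gave 1 peak list each for HSC3 control, HSC3 rapamycin, CAL33 control and CAL33 rapamycin.

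The RNA-seq labels and the RNA-seq values did not sit together. The labels place both rapamycin libraries in HSC3 and both control libraries in CAL33, in which case cell line and treatment cannot be told apart. In the MeRIP-seq labels, number 1 is HSC3 and number 2 is CAL33 under both treatments. Across 15826 genes, log2 expression correlated at 0.97 and 0.96 between the RNA-seq libraries of the same number and at 0.76 to 0.81 between all other pairs. The fit used here therefore paired the libraries by number, and the fit without pairing is given beside each call it changed. The 4 libraries held 18492273 to 23763098 counts, with 5.71% to 7.94% on mitochondrial genes. Of 8 squamous epithelial markers, 6 were above 1 CPM (counts scaled to the size of the library) in every library, while *KRT14* was at 0 in both libraries numbered 1 and *KRT6A* was below 1 CPM in rapamycin 1. *PTPRC*, *COL3A1* and *MLANA*, which mark blood, fibroblast and pigment cells, were at 0 in all 4. In contrast, the fibroblast marker *COL1A1* (8.75 to 30.2 CPM) and the pigment cell marker *PMEL* (2.74 to 4.32 CPM) were found in all 4. The fibroblast marker *PDGFRB* was at 10.3 and 15.2 CPM in number 1 and at 0 in number 2. Summed levels of 4 blood markers were at most 0.213 CPM. Summed levels were 1.46 to 44.1 CPM for 3 endothelial, 8.75 to 45.4 for 3 fibroblast, 2.74 to 4.32 for 2 melanocyte and at most 0.379 for 2 muscle markers. *CDH5*, an endothelial cadherin, made most of the endothelial sum in number 2 (25.5 and 40.4 CPM).

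Sequences around the transcription start are shown for 3 readers because mRNAs that depend on mTORC1 for their translation often begin with a 5′ terminal oligopyrimidine (TOP) tract. RefSeq (GRCh38.p14) windows were held for 8 of the 10 readers. Both starts of *YTHDF2* are shown because 1 of them has such a tract, and *IGF2BP2* and *HNRNPA2B1* for the largest rise and the largest fall among the readers. Each line gives 30 bases before the start and 20 from it, 5′ to 3′ on the gene's strand, with capitals marking the first transcribed base or, at the upstream start of *YTHDF2*, the pyrimidine tract.
YTHDF2 upstream start, chr1:28736594-28736643, plus strand: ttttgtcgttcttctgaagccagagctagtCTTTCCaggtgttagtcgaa
YTHDF2 downstream start, chr1:28736910-28736959, plus strand: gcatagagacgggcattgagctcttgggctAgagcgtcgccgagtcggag
IGF2BP2 upstream start, chr3:185825023-185825072, minus strand: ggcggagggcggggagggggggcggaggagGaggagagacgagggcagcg
IGF2BP2 downstream start, chr3:185821123-185821172, minus strand: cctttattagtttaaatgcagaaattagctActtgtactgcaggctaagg
HNRNPA2B1, chr7:26200727-26200776, minus strand: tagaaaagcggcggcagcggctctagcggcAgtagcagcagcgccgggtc

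The upstream start of *YTHDF2* reads C followed by 5 pyrimidines, and its downstream start does not begin with C. A C at the start followed by at least 4 pyrimidines was found in 1429 of 35116 RefSeq windows (4.07%), and in 1 of the 10 windows of the readers. The E-box CACGTG, which reads the same on both strands, was found within 250 bases before to 50 after the start in 2548 windows (7.26%), and among the readers in *YTHDF1* and *IGF2BP3*. Both starts of *IGF2BP2* and that of *HNRNPA2B1* held neither. A match is a stretch of letters and was not tied to any measurement here.

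In the RNA-seq comparison, *IGF2BP2* rose 1.85-fold with rapamycin and was the 1 reader that passed the test, while 9 of the 10 did not pass. Changes were tested by edgeR's quasi-likelihood test with the library number as a block and Benjamini-Hochberg adjustment over all genes tested, and the adjusted p values below come from it unless another fit is named. Across all genes, 8.15% passed at 0.05, with 4.65% higher and 3.50% lower, so 1 of 10 readers is near that share. The split was 736 higher and 554 lower, and 805 and 360 with upper-quartile normalisation, under which *IGF2BP2* was still the 1 reader called. Without the block, no gene of the 15826 passed (446 had an unadjusted p under 0.05), and the adjusted p of every reader was then 0.9997. The labels do not say whether the libraries came from separate cultures, so the p values cover only the spread between these libraries. The test drew each gene's spread largely from all genes together. An SE or interval below therefore does not measure the spread of that gene alone. In bulk RNA, a change in the share of cells that make a transcript and a change in the amount per cell cannot be told apart. CPM values of the readers and related genes include edgeR's TMM scaling between libraries, whereas those of the cell type markers do not.

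**Figure D1:**
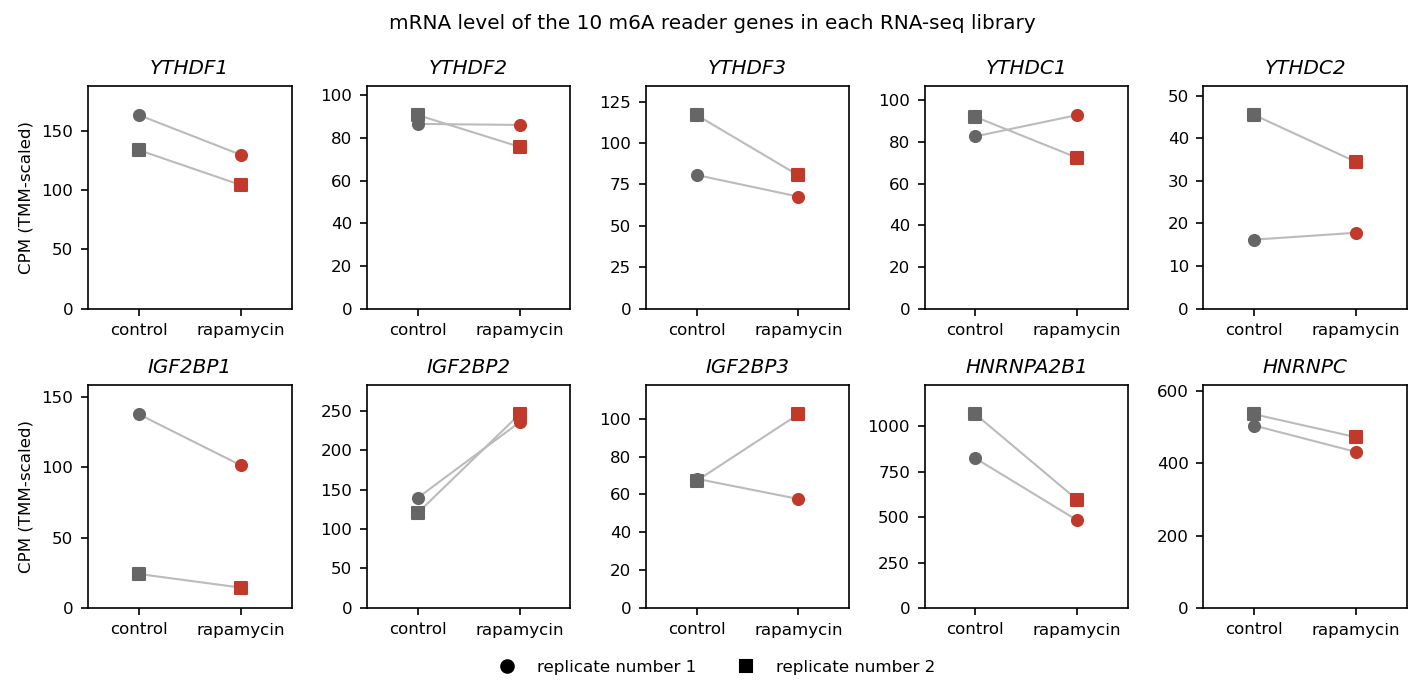
Level of each reader mRNA (vertical axis, TMM-scaled CPM, starting at 0 with its own scale per gene) in the control and rapamycin libraries, with 1 point per library and a line joining libraries of the same number. Both rapamycin points lie above both control points for *IGF2BP2* (235 and 246 against 140 and 120 CPM) and below them for *HNRNPA2B1*, while the points of *IGF2BP1* and *YTHDC2* separate by number.

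*YTHDF1*, *YTHDF2* and *YTHDF3* are close paralogues that carry bound mRNAs to the decay machinery. *YTHDF1* stood at 164 and 134 CPM in controls 1 and 2 and at 130 and 104.5 CPM in rapamycin libraries 1 and 2. *YTHDF2* stood at 86.7 and 90.8 CPM in the controls and at 86.2 and 75.9 CPM with rapamycin. *YTHDF3* stood at 80.7 and 117 CPM in the controls and at 67.7 and 80.5 CPM with rapamycin. In all 3 genes, both rapamycin libraries lay below both controls on TMM-scaled CPM, although for *YTHDF2* library 1 and *YTHDF3* library 2 by less than 1 CPM. Scaled by library totals alone, this separation did not hold for *YTHDF1* or *YTHDF2*. Rapamycin 1 then lay above control 2 for *YTHDF1* (2473 of 18492273 against 3171 of 23763098 counts). For *YTHDF2*, rapamycin 1 then lay above control 1 (1639 of 18492273 against 1877 of 21653290 counts). The log2 change was −0.34 (SE 0.25) for *YTHDF1*, −0.13 (SE 0.26) for *YTHDF2* and −0.40 (SE 0.26) for *YTHDF3*. None passed edgeR's test, at adjusted p = 0.429, 0.797 and 0.364. The 95% intervals ran from −0.86 to 0.17, from −0.66 to 0.39 and from −0.92 to 0.13, so neither no change nor a fall of more than 0.6 on the log2 scale fell outside them.

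*YTHDC1*, the nuclear reader, and *YTHDC2*, an RNA helicase with a YTH domain, had differences of opposite sign in the numbered pairs. *YTHDC1* stood at 82.7 and 92.0 CPM in the controls and at 92.9 and 72.4 CPM with rapamycin. The groups overlapped, and the log2 difference was 0.17 within number 1 and −0.35 within number 2. *YTHDC2* stood at 16.2 and 45.5 CPM in the controls and at 17.8 and 34.4 CPM with rapamycin, with log2 differences of 0.14 and −0.40. The fitted change was −0.09 (SE 0.26, 95% interval −0.62 to 0.45) for *YTHDC1* and −0.14 (SE 0.31, −0.77 to 0.50) for *YTHDC2*, with edgeR adjusted p = 0.874 and 0.834. The level of *YTHDC2* followed the library number, being 2.33-fold higher in number 2 than in number 1 in the same fit (log2 1.22, SE 0.31, edgeR adjusted p = 0.0027).

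The 3 IGF2BP genes, which encode paralogous mRNA-binding proteins of fetal tissue and many tumours, included the 1 reader past the threshold. *IGF2BP2* (ENSG00000073792, chr3:185643130-185825042) stood at 140 and 120 CPM in the controls and at 235 and 246 CPM with rapamycin, or 130.04 ± 13.5 against 240.5 ± 7.18 CPM (mean ± SD, n = 2). Both rapamycin libraries lay above both controls, by 0.75 on the log2 scale within number 1 and 1.03 within number 2. The log2 change of *IGF2BP2* was 0.89 (SE 0.26, 95% interval 0.36 to 1.42) with an edgeR adjusted p of 0.0316. Without the block the change was again 0.89 (SE 0.28), but the adjusted p of edgeR's test was 0.9997. With 1 library left out in turn, which could be fitted only without the block, it was 0.93 without control 1, 0.78 without control 2, 0.89 without rapamycin 1 and 0.83 without rapamycin 2, and it passed in none. No read was counted for the antisense gene *IGF2BP2-AS1* in any library.

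*IGF2BP1* (ENSG00000159217, chr17:48996558-49056145) stood at 138 and 24.2 CPM in the controls and at 102 and 14.5 CPM with rapamycin. The libraries separated by number rather than by treatment, and the level was 6.32-fold lower in number 2 (log2 −2.66, SE 0.28, edgeR adjusted p = 1.73e-08). Within each number the rapamycin library was lower, by −0.44 and −0.74 on the log2 scale. The fitted change was −0.59 (SE 0.27, 95% interval −1.13 to −0.04), which did not pass edgeR's test after adjustment (adjusted p = 0.181). *IGF2BP3* stood at 68.3 and 67.2 CPM in the controls and at 57.6 and 102 CPM with rapamycin. Its rapamycin libraries fell on opposite sides of the controls, at −0.24 and 0.61 within the pairs, and the fitted change was 0.18 (SE 0.28, 95% interval −0.38 to 0.75, edgeR adjusted p = 0.738).

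**Figure D2:**
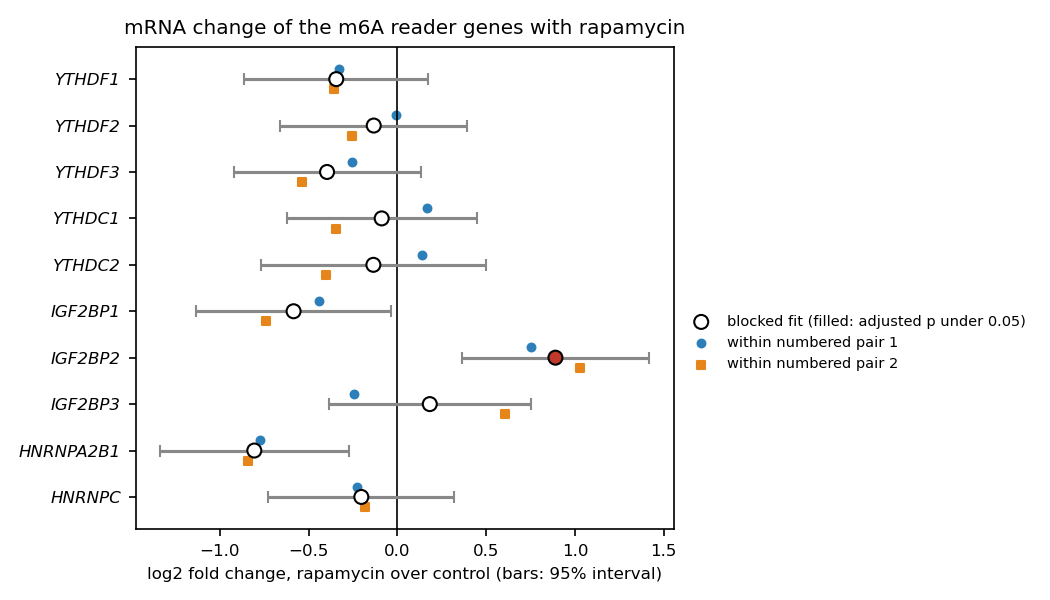
Log2 fold change of each reader mRNA, rapamycin over control (horizontal axis), from the blocked edgeR fit (large circles with 95% intervals, filled where the adjusted p was under 0.05) and within each numbered pair (small points). *IGF2BP2* is the filled circle at 0.89, and the intervals of *IGF2BP1* and *HNRNPA2B1* also lie on 1 side of 0 before adjustment.

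Between numbers 1 and 2, 2 readers passed (*IGF2BP1* and *YTHDC2*) against 37.3% of all genes. The squamous markers differed along the same split. *TP63*, a transcription factor of basal epithelium, was at 19.7 and 13.9 CPM in number 1 and at 331 and 343 CPM in number 2, whereas *EGFR* was at 7601 and 15290 CPM in number 1 and at 668 and 427 CPM in number 2. The summed squamous markers ranged from 8411 to 16030 CPM in number 1, mostly from *EGFR*, and from 4268 to 5168 CPM in number 2. *KRT5* was at 34.2 and 6.27 CPM in number 1 and at 1696 and 317 CPM in number 2. *KRT17* was at 4.9 and 5.19 CPM in number 1 and at 1341 and 2059 CPM in number 2. *KRT14*, *KRT6A* and *ITGB4* were also higher in number 2, while *CDH1*, like *EGFR*, was lower there. The part of cell line in the levels of *IGF2BP1* and *YTHDC2* was not tested. Among 12172 genes ranked by the distance of their centred log2 CPM over the 4 libraries, those nearest to *IGF2BP1* were *SPTLC3* (distance 0.127), *LAMA1* (0.151) and *SLC8A1* (0.173). *SPTLC3*, a subunit of serine palmitoyltransferase, stood at 15.0 and 2.53 CPM in the controls and at 10.3 and 1.59 CPM with rapamycin.

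*HNRNPA2B1* and *HNRNPC*, the nuclear RNA-binding proteins of the list, were both lower in each rapamycin library than in each control. *HNRNPA2B1* (ENSG00000122566, chr7:26189927-26200746) stood at 823 and 1066 CPM in the controls and at 482 and 595 CPM with rapamycin, which was the largest fall among the readers. The fitted log2 change was −0.81 (SE 0.26, 95% interval −1.34 to −0.27), or 1.75-fold lower, and the edgeR adjusted p of 0.0521 lay just above the threshold. *HNRNPA2B1* was past it with DESeq2 in place of edgeR (log2 change −0.79, DESeq2 adjusted p = 0.0116) and without a filter on low counts (−0.84, edgeR adjusted p = 0.0306). It was not past it with upper-quartile normalisation (−0.73, edgeR adjusted p = 0.0843) or with at least 10 counts in every library (−0.78, edgeR adjusted p = 0.056). *HNRNPC* stood at 504 and 535 CPM in the controls and at 431 and 472 CPM with rapamycin. Its change was −0.20 (SE 0.25, 95% interval −0.73 to 0.32, edgeR adjusted p = 0.675). The table also lists 13 HNRNPC-like copies, and they summed to at most 197 counts in a library against 8201 to 12673 counts for *HNRNPC*. How reads that match several genes were counted is not given, so these counts cannot show how many reads *HNRNPC* lost.

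Over the 10 readers, the median log2 change was −0.17, against 0.053 over all genes tested. On TMM-scaled CPM, both rapamycin libraries lay on 1 side of both controls for 6 readers, against 31.5% of all genes. Of these readers, *YTHDF1* and *YTHDF2* did not separate on library totals alone. Within the numbered pairs, 6 readers were lower in both pairs and 1 was higher in both, where 31.8% of all genes were lower and 34.6% higher in both. Among the lower readers, *YTHDF2* had a log2 difference of only −0.008 in number 1, which depended on the TMM scaling.

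The genes around the readers were examined in 5 lists. Over all genes, 4.65% were higher and 3.50% were lower, with a median log2 change of 0.053. The lists were written with earlier results of these data known, so setting their counts beside these shares is not a test. Of 15 m6A writers and erasers tested, 0 were higher and 1 was lower by edgeR's test, with a median log2 change of −0.25. The lower gene was the demethylase *ALKBH5*, at 138 and 119 CPM in the controls and at 58.8 and 75.8 CPM with rapamycin (log2 change −0.94, SE 0.26, edgeR adjusted p = 0.0266). The methyltransferase subunit *METTL14* (−0.02, edgeR adjusted p = 0.976) and the demethylase *FTO* (0.22, edgeR adjusted p = 0.659) did not pass.

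Of 12 other proteins described as binding m6A RNA, 0 were higher and 1 was lower, with a median of −0.50. The lower gene was *RBMX*, a nuclear RNA-binding protein, at 414 and 471 CPM in the controls and at 147 and 157 CPM with rapamycin. It fell 2.90-fold (log2 change −1.54, SE 0.26, edgeR adjusted p = 0.00112). Of 17 decay and splicing partners of the YTH proteins, 0 were higher and 3 were lower, with a median of −0.36. These were *POP1*, a subunit of RNase P and MRP (log2 change −1.55), *SRSF10*, a splicing factor (−0.96), and *NXF1*, the mRNA export receptor (−0.93), at edgeR adjusted p = 0.00441, 0.0202 and 0.0391. *NXF1* did not pass with upper-quartile normalisation (−0.85, edgeR adjusted p = 0.0652) or with DESeq2 (−0.92, DESeq2 adjusted p = 0.0957). None of the CCR4-NOT deadenylase subunits of that list passed.

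Of 12 transcripts known to be bound by IGF2BP proteins, 1 was higher and 1 lower, with a median of −0.24. *MYC*, the oncogenic transcription factor, stood at 188 and 158 CPM in the controls and at 608 and 250 CPM with rapamycin (log2 change 1.18, SE 0.28, edgeR adjusted p = 0.0119). *FSCN1*, the actin-bundling protein fascin, stood at 391 and 627 CPM in the controls and at 203 and 340 CPM with rapamycin (−0.91, edgeR adjusted p = 0.027). *MYC* moved in the direction of *IGF2BP2* and *FSCN1* in the opposite one. Of 18 other HNRNP genes, 0 were higher and 2 were lower, with a median of −0.40, namely *HNRNPAB* (−1.18, edgeR adjusted p = 0.00705) and *HNRNPH1* (−0.83, edgeR adjusted p = 0.0451). With upper-quartile normalisation *HNRNPH1* did not pass (−0.75, edgeR adjusted p = 0.0732). Without the block, 0 genes of any of the 5 lists passed edgeR's test.

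**Figure D3:**
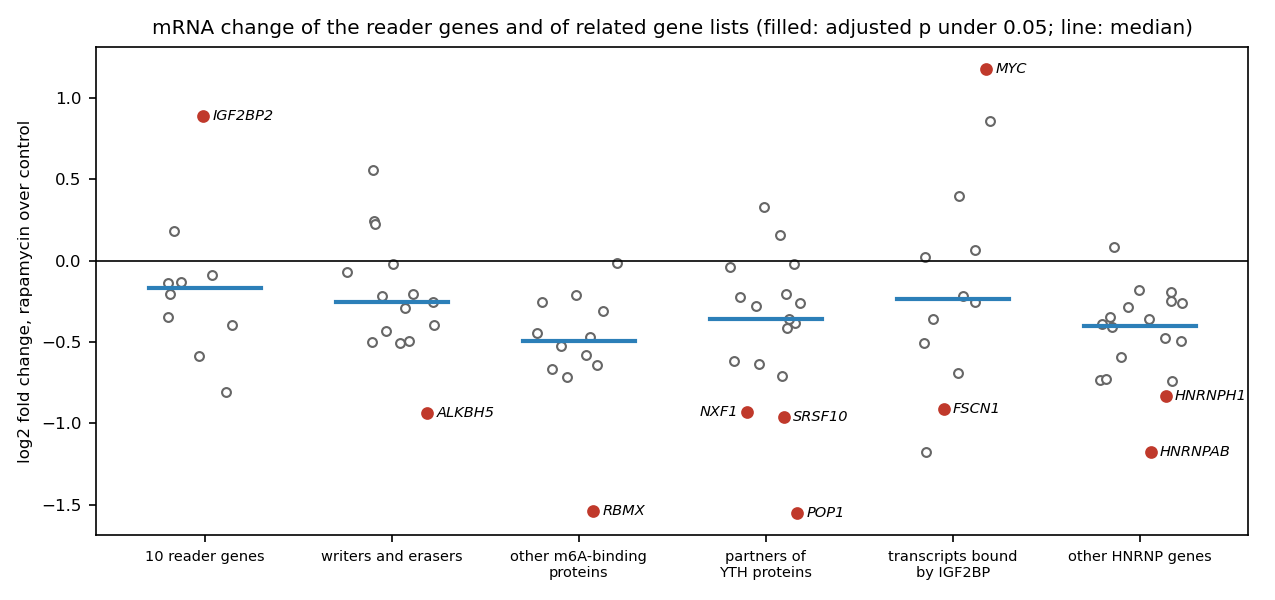
Log2 fold change, rapamycin over control (vertical axis), of the 10 readers and of 5 related gene lists, with 1 point per gene, filled and named where the blocked edgeR adjusted p was under 0.05, and a line at the median of each list. The medians of all 6 groups lie below 0, from −0.17 for the readers to −0.50 for the other m6A-binding proteins.

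In MeRIP-seq, 21 m6A peaks lay on 7 of the 10 readers, and 14 of them (66.7%) lay on the 3 YTHDF genes. A fold enrichment is the authors' ratio of immunoprecipitated to input RNA at a peak, positions are on hg38, and the lists hold 3079 to 3952 peaks with medians of 33.3 to 42.6. Each list comes from 1 pair of libraries, so a peak has no replicate, and its read depth is unknown. Readers with a peak numbered 3 in HSC3 control, 6 in HSC3 rapamycin, 3 in CAL33 control and 5 in CAL33 rapamycin. Of all genes tested, 17.6%, 17.5%, 16.1% and 14.2% had a peak in these lists, and of the 6577 genes with a mean of at least 28.5 CPM, the level of the lowest reader, 27.2%, 26.8%, 26.6% and 22.5% had one. At least 1 list held a peak for 7 readers, against 35.4% of all genes and 50.1% of the genes above that level. All 4 lists did so for 1 reader, *YTHDF2*, against 3.61% and 7.42%. *YTHDC2*, *IGF2BP1* and *HNRNPA2B1* had no listed peak.

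The peaks on the readers lay mostly in coding sequence. Of the 21, 16 were in coding sequence (76.2%), 4 in 3′ UTRs and 1 in a 5′ UTR, where 41.0% to 42.6% of all peaks of a list were in coding sequence. The YTHDF genes held 13 of these 16 coding peaks, and peaks on 1 gene share their transcript. All 21 peaks lay within the RefSeq limits of their gene, were 150 to 689 bp long and had a log10 false discovery rate of −3.75 or less.

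**Figure D4:**
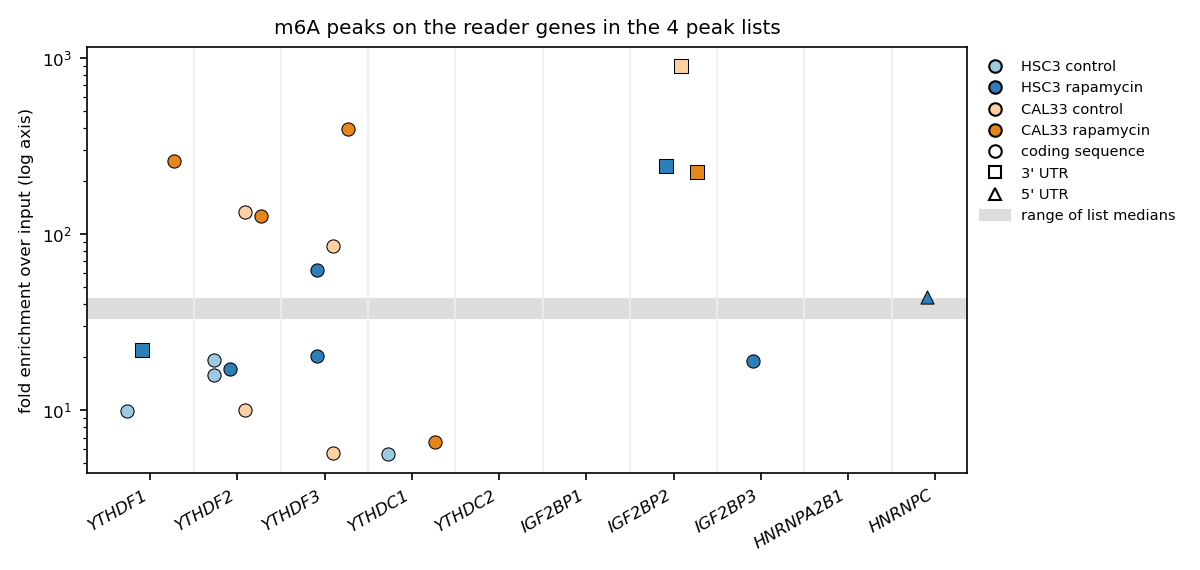
Fold enrichment over input (vertical log axis) of the 21 m6A peaks on the 10 reader genes, with colours for the 4 lists, shapes for the part of the transcript and a grey band for the range of the list medians. The highest points are the 3′ UTR peaks of *IGF2BP2* (226 to 894) and the coding peaks of *YTHDF3* (397) and *YTHDF1* (260) in CAL33 rapamycin.

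*YTHDF2* carried 6 coding peaks within 1347 bp on chromosome 1, plus strand. HSC3 control had peaks at chr1:28743039-28743218 (fold enrichment 15.9) and chr1:28743547-28743816 (19.2), and HSC3 rapamycin had 1 at chr1:28743248-28743936 (17.2). CAL33 control had peaks at chr1:28742590-28742769 (10.1) and chr1:28743368-28743936 (133), and CAL33 rapamycin had 1 at chr1:28743278-28743846 (126). Of these, 1 peak of each list overlapped in 1 region, chr1:28743248-28743936, and the peaks of 15.9 and 10.1 lay outside it. The region ranked at the 36.4th and 31.5th percentile of the HSC3 lists and at the 76.0th and 85.8th of the CAL33 lists. Fold enrichment there was higher in CAL33 than in HSC3, while the values of the treatments within a line were close.

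The *YTHDF2* region was 1 of 331 regions with a peak in all 4 lists, and log2 fold enrichments, less the median of these regions per list, were compared with limma with cell line as a block. The difference between rapamycin and control at *YTHDF2* was 0.07 (SE 1.72, 95% interval −3.31 to 3.45, limma adjusted p = 0.994), with −0.07 in HSC3 and 0.21 in CAL33. CAL33 stood 2.70 above HSC3 (SE 1.72, limma adjusted p = 0.871). The limma test called 0 of 331 regions (0%) between treatments and 0 (0%) between cell lines, with 17 and 13 regions at an unadjusted p under 0.05. The test took its spread from all 331 regions together, so the SE and interval do not measure the spread of *YTHDF2* alone. That interval spans changes of more than 3 on the log2 scale in either direction. A difference within that range was not detectable here.

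*YTHDF1* and *YTHDF3* had peaks in 3 lists each. *YTHDF1*, on the minus strand of chromosome 20, had a coding peak in HSC3 control at chr20:63202497-63202705 (9.92) and another in CAL33 rapamycin at chr20:63203211-63203449 (260), and none in CAL33 control. In HSC3 rapamycin its peak was instead at the 3′ end of the gene, at chr20:63195429-63195607 (21.9), and no 2 of its peaks overlapped. *YTHDF3*, on chromosome 8, had 5 coding peaks within 1078 bp and none in HSC3 control. One site was listed at the same position in HSC3 rapamycin (20.3) and CAL33 control (5.69), and nearer the 5′ end stood peaks of 62.9 in HSC3 rapamycin, 85.1 in CAL33 control and 397 in CAL33 rapamycin. The CAL33 rapamycin peak overlapped the CAL33 control peak over its full 241 bp and the HSC3 peak by 1 bp.

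**Figure D5:**
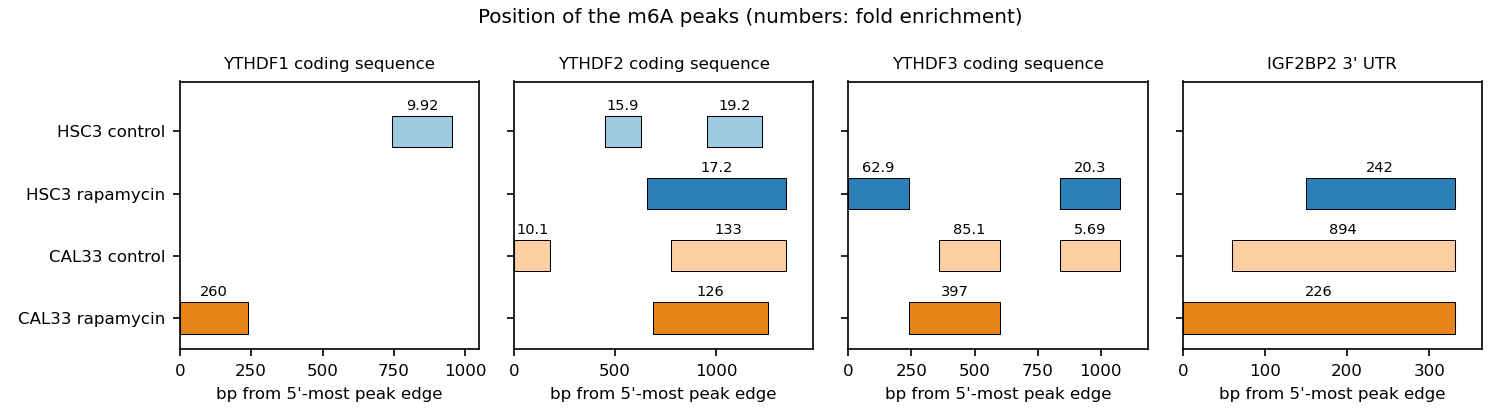
Position of the m6A peaks on the coding sequence of *YTHDF1*, *YTHDF2* and *YTHDF3* and on the 3′ UTR of *IGF2BP2* in the 4 lists (rows), with the distance in bp from the 5′-most peak edge on the horizontal axis and the fold enrichment above each bar. Peaks of all 4 lists overlap in *YTHDF2*, the 3 peaks of *IGF2BP2* end at the same base on the right, and the 2 coding peaks of *YTHDF1* lie apart.

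*IGF2BP2*, the reader whose mRNA rose, carried the highest fold enrichment among the readers. Its peaks lay in the 3′ UTR on the minus strand of chromosome 3, at chr3:185643739-185643919 in HSC3 rapamycin (242), chr3:185643739-185644009 in CAL33 control (894) and chr3:185643739-185644069 in CAL33 rapamycin (226). They shared 1 edge, 609 bp from the 3′ end of the gene, and ranked at the 95.4th, 99.2nd and 94.3rd percentile of their lists. HSC3 control had no listed peak there. In CAL33 the fold enrichment with rapamycin was thus below that without, while in HSC3 the peak was listed only with rapamycin, and neither difference could be tested with 1 list per condition.

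The other readers had few and mostly weak peaks. *YTHDC1* had coding peaks at chr4:68337108-68337348 in HSC3 control (5.68) and chr4:68337288-68337437 in CAL33 rapamycin (6.64), both near the 10th percentile of their lists, which overlapped by 61 bp. *IGF2BP3* had 1 coding peak in HSC3 rapamycin, at chr7:23469988-23470167 (19.1), 324 bp from the start of the gene. *HNRNPC* had 1 peak in its 5′ UTR in the same list, at chr14:21263603-21263812 (43.7), at the 57.5th percentile.

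Within a cell line, reader peaks were compared between treatments. In HSC3, 1 of 4 control peaks overlapped a rapamycin peak of the same gene and 1 of 7 rapamycin peaks overlapped a control peak, where 28.2% of all peaks did in either list. In CAL33 these were 3 of 5 control peaks and 3 of 5 rapamycin peaks, where 25.0% and 29.9% of all peaks did. With 4 to 7 reader peaks in a list, these shares have little precision. Requiring the overlap to cover 50% or more of the shorter peak left the reader counts as they were. In HSC3 the overlapping gene was *YTHDF2*, and in CAL33 the genes were *YTHDF2*, *YTHDF3* and *IGF2BP2*. Of the related lists, 11 of 15 writers and erasers, 7 of 12 other m6A-binding proteins, 6 of 17 YTH partners, 5 of 12 IGF2BP-bound transcripts and 8 of 18 other HNRNP genes had a peak in at least 1 list, beside 7 of the 10 readers, 35.4% of all genes and 50.1% of those at or above the level of the lowest reader.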

How the data were processed

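The RNA-seq values deposited by the authors were read counts per Ensembl gene, not normalised. For MeRIP-seq they deposited 1 peak list per immunoprecipitated and input pair, with a fold enrichment (ratio of immunoprecipitated to input RNA), and log10 p-value and log10 false discovery rate columns. The submitters' processing notes name cutadapt 2.5, HISAT2 2.1.0, featureCounts 1.6.3, HOMER 4.10.4 and hg38. The name under which the counts were deposited points to HTSeq instead, so the counting tool is not settled. Strand use and peak settings are not given in the sources used here.

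The counts were fitted in edgeR 4.0.16 under R 4.3.3 (filterByExpr, TMM, robust quasi-likelihood test, library number as a block, Benjamini-Hochberg at 0.05). Shared peak regions were tested with limma 3.58.1. The number differences of the 2 treatments correlated across genes (r = 0.90, 15826 genes, not independent replicates). The pairing rested on the MeRIP-seq numbering and on the correlations between the RNA-seq libraries, which come from the same values as the tests. Code was tested on simulated data. Alternatives were no block, DESeq2 1.42.0, upper-quartile normalisation, other count filters, each library left out, stricter peaks and other overlaps and scalings. All 10 readers were named, and from each related list the called genes, up to the 3 with the largest change. For the reader with the widest range over libraries, the 3 genes nearest in pattern were listed. Members, lists and tests were chosen with earlier results of these data known. Figures used matplotlib 3.10.9.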

Additional observations from a re-analysis of the deposited data

Results flagged for a closer look

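For 3 readers the rapamycin and control libraries of number 1 differed in the opposite direction to those of number 2. The log2 difference of *YTHDC1* was 0.17 in number 1 and −0.35 in number 2, that of *YTHDC2* was 0.14 and −0.40, and that of *IGF2BP3* was −0.24 and 0.61. With 1 library per number and treatment, the difference between the pairs was not tested.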

How the results depend on the processing

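Without the replicate block, 0 genes, 0 readers and 0 genes of each list were called, and *IGF2BP2* stood at 0.89 (edgeR adjusted p = 0.9997). The block changed no call of another reader. DESeq2 called 830 genes against 1290 (4296 had no adjusted p), 2 readers and 2 other m6A-binding genes, and gave *HNRNPA2B1* −0.79. Without a count filter, 2 readers were called, with *HNRNPA2B1* at −0.84. Upper-quartile normalisation called 1 other HNRNP gene and moved the median change of all genes to 0.129. With 1 library left out, fitted without the block, 0 genes, 0 readers and 0 list genes were called. Log2 changes then ran from 0.78 to 0.93 for *IGF2BP2*, −0.29 to 0.067 for *YTHDC1* (reversed without rapamycin 2), −0.87 to 0.68 for *YTHDC2* (0.68 without control 2, 0.14 without rapamycin 1), −2.51 to 1.21 for *IGF2BP1* (1.21 without control 1, 0.31 without rapamycin 2) and −0.25 to 0.57 for *IGF2BP3* (−0.25 without rapamycin 2). The shared *YTHDF2* region changed sign to −0.12 on fold enrichments as deposited and −0.030 with the peak of smallest p per list. The cause of these changes was not tested. A fit without the block leaves the number difference in the spread. The unknown depth of the m6A libraries limits every peak value.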
